A study of Mus musculus with 9 samples.

Results

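The 9 genes described here are Dnmt1, Dnmt3a, Dnmt3b, Uhrf1, Tet1, Tet2, Tet3, Mbd1 and Mbd2, which write, copy, oxidise or read methyl groups on cytosine in DNA. They, and the gene lists set beside them, were chosen by name with earlier results of these data known. The 9 were found by Ensembl identifier and mouse symbol among the 54752 genes of the count table, and all 9 passed the filter on low counts. RNA came from B16F10, a mouse melanoma line cultured in DMEM with 10% FBS. Libraries carried the guide Tada2bsg1 (guide 1, 3 libraries) or Tada2bsg2 (guide 2, 3 libraries), both with genotype Tada2b knockout, or GFPsg, a guide named for GFP with genotype WT (3 libraries), which served as control. The labels do not say whether a knockout line was a clone or a pool, or whether replicates were separate cultures, so p-values reflect no more than how far these samples scattered, which may be technical. The protein made by Tada2b is an adaptor within SAGA, a coactivator complex that acetylates histones.

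DNA methylation in mammals sits mostly on CpG dinucleotides. DNMT3A and DNMT3B place new marks. DNMT1, brought to newly copied DNA by UHRF1, restores marks on the daughter strand in S phase. TET1, TET2 and TET3 oxidise methylcytosine, which leads to its loss through base excision repair or through dilution at replication, and MBD1 and MBD2 bind methylated CpGs and recruit repressors. In melanoma the oxidised base is known to be scarce relative to naevi.

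On mm10, Dnmt1 lies on chromosome 9 (ENSMUSG00000004099, 20907209 to 20959888, minus strand), Uhrf1 on chromosome 17 (ENSMUSG00000001228, 56303321 to 56323486, plus strand), Dnmt3a on chromosome 12 (ENSMUSG00000020661, 3806007 to 3914443, plus strand) and Dnmt3b on chromosome 2 (ENSMUSG00000027478, 153649450 to 153687730, plus strand). Tet1 lies on chromosome 10 (ENSMUSG00000047146, 62804570 to 62908996), Tet2 on chromosome 3 (ENSMUSG00000040943, 133463679 to 133545139) and Tet3 on chromosome 6 (ENSMUSG00000034832, 83362373 to 83459084), all on the minus strand. Mbd1 (ENSMUSG00000024561, 74267605 to 74282732) and Mbd2 (ENSMUSG00000024513, 70568189 to 70626131) share chromosome 18, both on the plus strand. Counts were summed over each gene, so alternative starts and isoforms, such as those among the 18 annotated transcripts of Dnmt3a, could not be told apart.

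Library totals ranged from 70555655 to 76923854 counts. Tada2b mRNA averaged 32.8 ± 0.530 CPM with guide 1, 26.95 ± 1.73 CPM with guide 2 and 26.6 ± 1.40 CPM in GFPsg (CPM being counts scaled to library size with TMM factors; SD, n = 3), and was called higher with guide 1 (log2 0.30, edgeR adjusted p = 0.000213) and in the contrast of both guides with GFPsg (0.16, edgeR adjusted p = 0.0101). Counts over the whole gene do not check an edit. All 10 melanocyte markers examined were called lower in that contrast, termed the knockout contrast, and their summed level was 5169 to 5410 CPM with guide 1, 7330 to 7575 CPM with guide 2 and 21424 to 22256 CPM in GFPsg. Summed leukocyte markers stood at 6.86 to 7.20, 6.06 to 6.27 and 3.68 to 4.01 CPM in guide 1, guide 2 and GFPsg libraries. Of the 12 leukocyte markers 4 were tested, and in the knockout contrast Cd68 (1.09) and Lyz2 (1.08) rose on the log2 scale, Fcer1g fell by 1.19 and Cd79a was not called, while Ptprc and Itgam were at 0 in all 9 libraries. Summed fibroblast and endothelial markers stood at 13.6 to 14.5, 12.96 to 15.2 and 6.18 to 8.77 CPM in the same order, with 2 of 4 tested markers higher (Pdgfrb and Col3a1) and 1 lower (Vwf), and the epithelial list stayed under 1 CPM in every library.

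The promoters of Dnmt3b and Tet1, which fell most, are shown beside those of Dnmt1 and Uhrf1, the maintenance pair. Sequences are from RefSeq (GRCm38.p6, the assembly of mm10), from 250 bases before to 50 bases after an annotated start, written 5′ to 3′ on the gene's strand, with each CpG, the dinucleotide these enzymes act on, in capitals. RefSeq lists 3 such starts for Dnmt1 and 2 for Uhrf1, and the start shown is the one with the most CpGs.
Dnmt3b, chr2:153649199-153649498, plus strand: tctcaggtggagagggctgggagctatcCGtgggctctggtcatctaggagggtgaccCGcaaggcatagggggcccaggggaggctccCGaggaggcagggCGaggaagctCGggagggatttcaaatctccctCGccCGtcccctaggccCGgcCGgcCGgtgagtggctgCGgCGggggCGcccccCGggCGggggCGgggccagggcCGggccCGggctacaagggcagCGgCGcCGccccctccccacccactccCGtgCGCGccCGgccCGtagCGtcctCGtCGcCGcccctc
Tet1, chr10:62887275-62887574, minus strand: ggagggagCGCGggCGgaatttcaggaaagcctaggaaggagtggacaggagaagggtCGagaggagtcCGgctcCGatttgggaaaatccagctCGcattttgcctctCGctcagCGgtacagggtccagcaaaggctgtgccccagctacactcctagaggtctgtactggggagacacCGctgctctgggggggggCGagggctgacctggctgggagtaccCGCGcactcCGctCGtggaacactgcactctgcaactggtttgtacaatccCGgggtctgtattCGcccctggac
Dnmt1, chr9:20952574-20952873, minus strand: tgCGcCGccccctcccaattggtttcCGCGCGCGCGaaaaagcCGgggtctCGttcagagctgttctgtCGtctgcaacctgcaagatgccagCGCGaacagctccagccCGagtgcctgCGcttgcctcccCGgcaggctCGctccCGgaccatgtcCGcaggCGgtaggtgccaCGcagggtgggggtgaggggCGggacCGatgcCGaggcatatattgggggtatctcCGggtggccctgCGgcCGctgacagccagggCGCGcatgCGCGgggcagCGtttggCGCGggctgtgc
Uhrf1, chr17:56304063-56304362, plus strand: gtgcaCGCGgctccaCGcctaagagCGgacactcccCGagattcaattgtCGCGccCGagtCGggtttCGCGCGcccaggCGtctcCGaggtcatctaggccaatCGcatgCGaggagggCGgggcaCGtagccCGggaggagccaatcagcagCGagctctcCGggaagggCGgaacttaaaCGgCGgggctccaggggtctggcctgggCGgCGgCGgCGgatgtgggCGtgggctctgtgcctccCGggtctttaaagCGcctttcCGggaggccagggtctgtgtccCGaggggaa

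CpGs numbered 30 in the Dnmt3b window, 17 in that of Tet1, and 33 each in the windows of Dnmt1 and Uhrf1, against a median of 7 over 32851 mouse windows of the same length. Fewer CpGs were held by 88.3% of all windows than by that of Dnmt3b and by 68.6% than by that of Tet1. Among the other members, the Tet2 window held 57 CpGs, more than 99.85% of all windows. The letters TTTGGCGC or TTTCGCGC, an E2F-type motif searched on both strands, occurred in the Dnmt1 window (2 matches) and the Uhrf1 window (1 match) and in 0.81% of all windows. CCAAT occurred 3 times in the Dnmt1 window, with 1 overlapping pair on opposite strands, 2 times in that of Uhrf1 and in 37.4% of all windows. None of these was found in the Dnmt3b and Tet1 windows, which says only that these letters are not there. GGGCGG, a GC box, occurred 4 times in the Dnmt3b window, 1 time in that of Tet1 and in 35.7% of all windows. Which start these cells use was not known from counts over whole genes.

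Levels between genes were compared as CPM per kilobase of annotated exon. In GFPsg the order ran Uhrf1, Dnmt1, Mbd2, Mbd1, Tet3, Dnmt3a, Tet2, Dnmt3b and Tet1, and no neighbours in that order overlapped between libraries. Uhrf1 stood at 75.8 ± 2.83, 79.1 ± 2.57 and 82.7 ± 2.37 CPM per kb in guide 1, guide 2 and GFPsg libraries, and Tet1 at 0.590 ± 0.0308, 0.807 ± 0.0323 and 1.01 ± 0.0540 CPM per kb (SD, n = 3). The order was the same with guide 1. With guide 2 Tet3 and Mbd1 exchanged places with overlapping libraries, and Dnmt3a and Tet2 overlapped as well. Exon length was the union over all annotated transcripts, so a gene with unused exons reads low on this scale.

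**Figure D1:**
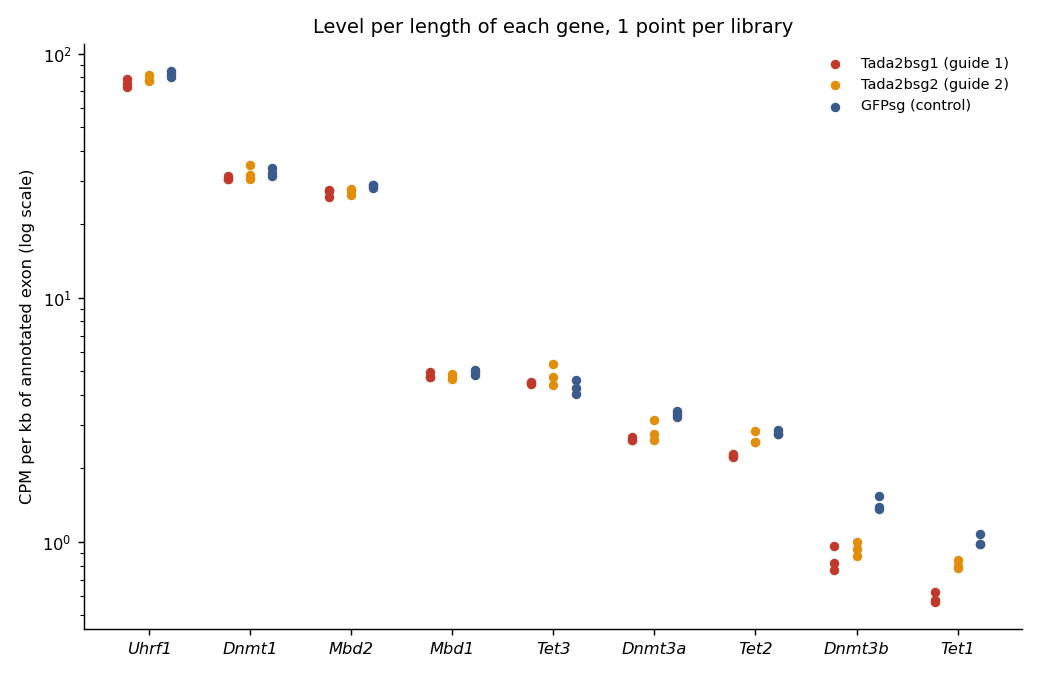
Level of each gene in CPM per kb of annotated exon (log axis), with 1 point per library, for guide 1, guide 2 and GFPsg. Uhrf1 lies highest, between 73.2 and 85.2, and Tet1 lowest, between 0.566 and 1.07, in all 9 libraries.

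In libraries labelled knockout, the de novo methyltransferase genes Dnmt3b and Dnmt3a and the oxidase gene Tet1 fell with both guides, Tet2 fell with guide 1, and Dnmt1 and both MBD genes were not called. Against GFPsg, the mean of both guides called 5 of the 9 genes lower and 0 higher by edgeR's quasi-likelihood test at an adjusted p under 0.05. Over all 17931 genes tested this rule called 51.0%, with 26.3% lower and 24.7% higher, so the number of members called was near that of the whole table. Falls of at least 0.5 on the log2 scale were called for 2 members, Dnmt3b and Tet1, and for 9.92% of all genes tested. The median log2 change was −0.10 over the 9 members and −0.02 over all genes tested, and scaling by library size alone put the median of all genes at 0.07. With that scaling 63.3% of the genes called were higher, against 48.4% with TMM. It called 4 members, Dnmt3a, Dnmt3b and Tet1 lower and Tet3 higher (0.19, edgeR adjusted p = 0.0134). The calls of Tet2 and Uhrf1 ended.

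**Figure D2:**
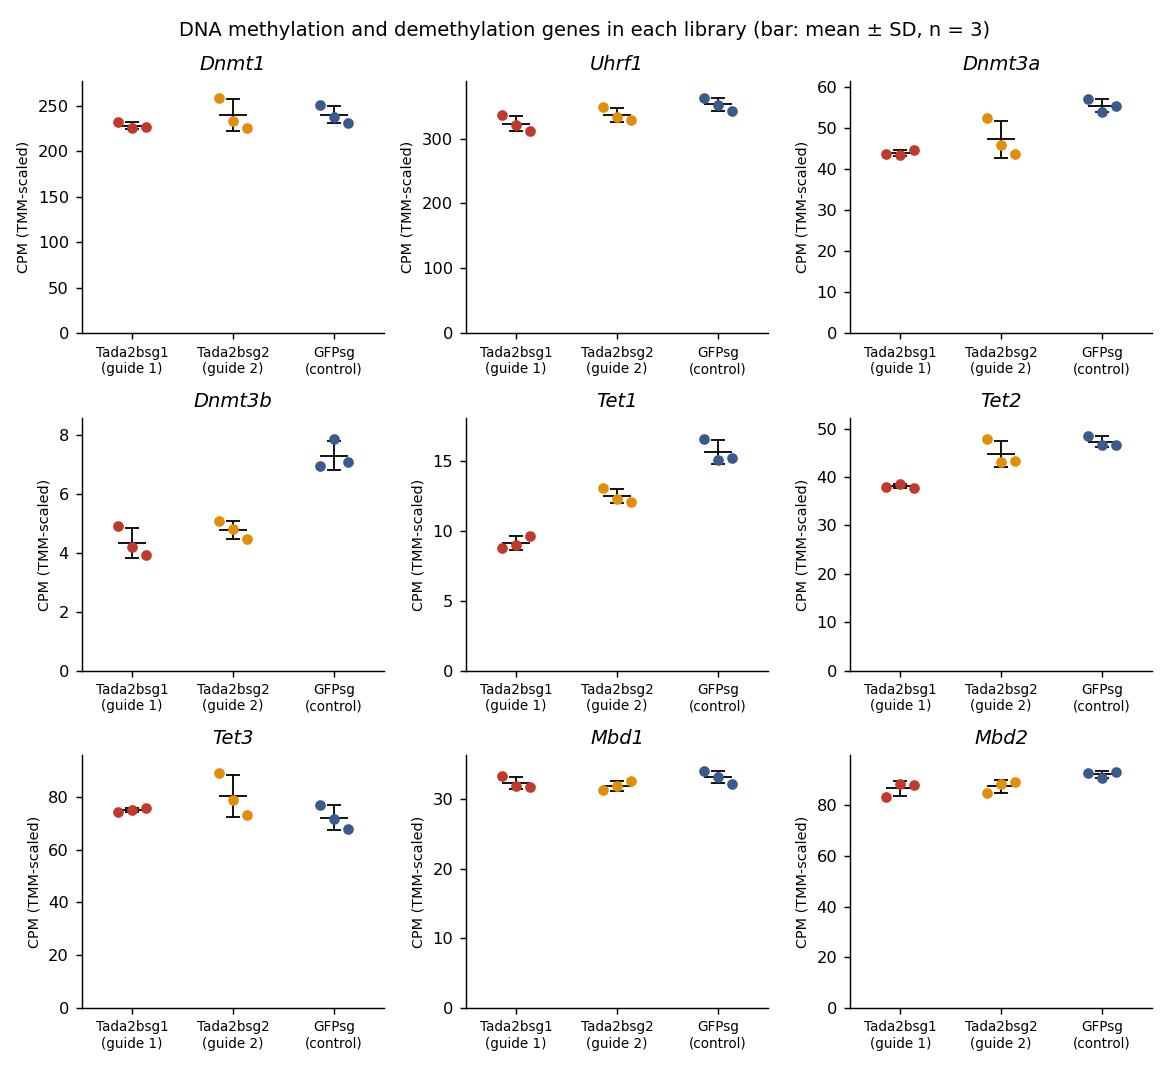
CPM of each gene in every library by group, with the mean and SD of 3 libraries as a bar. For Dnmt3a, Dnmt3b, Tet1 and Mbd2 all 6 knockout libraries lie below the 3 GFPsg libraries, as for 22.2% of all genes tested. For the other 5 genes the ranges overlap.

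Dnmt3b had the largest fall of the 9 genes in the knockout contrast. It was counted at 4.91, 4.19 and 3.93 CPM with guide 1, at 5.09, 4.80 and 4.47 CPM with guide 2, and at 6.96, 7.87 and 7.08 CPM in GFPsg. No knockout library reached the lowest GFPsg library, and the guides overlapped each other. These levels rested on 306 to 388 reads per guide 1 library, 320 to 387 per guide 2 library and 506 to 525 per GFPsg library. In bulk RNA, fewer cells that express a gene and less RNA per cell cannot be told apart. The log2 change was −0.68 ± 0.08 in the knockout contrast (SE; edgeR adjusted p = 2.74e-06), −0.75 with guide 1 and −0.61 with guide 2. In the knockout contrast the level fell by 37.5%. The guides share their control libraries, and the difference between them was 0.14 (guide 2 over guide 1; 95% interval −0.07 to 0.35).

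Dnmt3a, the other de novo enzyme, was the more abundant of the pair and fell by less. It stood at 43.7, 43.6 and 44.8 CPM with guide 1, at 52.5, 45.9 and 43.6 CPM with guide 2, and at 57.2, 54.1 and 55.4 CPM in GFPsg. All 6 knockout libraries were below the controls, with guide 2 replicate 1 closest to them. The log2 change was −0.28 ± 0.05 in the knockout contrast (SE; edgeR adjusted p = 9.50e-05), −0.34 with guide 1 and −0.23 with guide 2. Scaling by library size alone ended the call with guide 2 (−0.14, edgeR adjusted p = 0.0730). Dnmt3a shares 133 exonic bases with Dnmt3aos on the opposite strand, which had at most 11 reads in any library. Dnmt3l, the catalytically inactive partner of these enzymes, had 0 to 7 reads per library and was not tested.

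Tet1, which encodes an oxidase best known from embryonic stem cells and germ cells, fell with both guides and to different levels. It was counted at 8.75, 8.96 and 9.66 CPM with guide 1, at 13.0, 12.3 and 12.1 CPM with guide 2, and at 16.6, 15.1 and 15.2 CPM in GFPsg. The groups did not overlap, with guide 1 lowest, guide 2 between and GFPsg highest. All 6 knockout libraries lay below GFPsg for 22.2% of all genes tested. The share of genes with the full order of 3 groups was not counted, and Mest, Neil2 and Ogt, described below, also had it. The log2 change was −0.78 ± 0.07 with guide 1 (SE; edgeR adjusted p = 3.56e-08), −0.33 ± 0.07 with guide 2 (edgeR adjusted p = 0.000584) and −0.55 ± 0.06 in the knockout contrast (edgeR adjusted p = 2.86e-07). Guide 2 lay above guide 1 by 0.45 ± 0.07 (edgeR adjusted p = 0.000677). Over all genes, 3.68% were called between the guides.

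Tet2, an oxidase gene often mutated in blood cancers, was also lower with guide 1 than with guide 2. It stood at 38.0, 38.6 and 37.7 CPM with guide 1, at 47.9, 43.1 and 43.2 CPM with guide 2, and at 48.6, 46.6 and 46.7 CPM in GFPsg. Guide 1 libraries lay below all others, whereas guide 2 replicate 1 lay within the controls. The log2 change was −0.31 ± 0.05 with guide 1 (SE; edgeR adjusted p = 3.43e-05) and −0.08 ± 0.05 with guide 2 (edgeR adjusted p = 0.192), and guide 2 exceeded guide 1 by 0.23 ± 0.05 (edgeR adjusted p = 0.00920). Without guide 2 replicate 1 the guide 2 change was −0.13 and called (edgeR adjusted p = 0.0246). Without guide 1 replicate 3 the difference between guides was 0.22 and not called (edgeR adjusted p = 0.0600, with 0.000438 to 0.0600 over 15 alternatives). In the knockout contrast Tet2 fell by 0.20 on the log2 scale (edgeR adjusted p = 0.000662), a call that scaling by library size alone ended (−0.11, adjusted p = 0.0546). The 10 melanocyte markers were likewise all called higher with guide 2 than with guide 1, and their part in the Tet1 and Tet2 differences was not tested.

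Tet3, the most abundant Tet gene per length, was called higher with guide 2, close to the threshold. It was counted at 74.3, 75.0 and 75.8 CPM with guide 1, at 89.0, 78.7 and 73.1 CPM with guide 2, and at 77.0, 71.6 and 67.6 CPM in GFPsg. All groups overlapped, and guide 2 replicate 1 stood apart at the top. The log2 change was 0.16 ± 0.06 with guide 2 (SE; edgeR adjusted p = 0.0475), 0.06 with guide 1 and 0.11 ± 0.05 in the knockout contrast (edgeR adjusted p = 0.107). Leaving out guide 2 replicate 1 put the guide 2 change at 0.07 (adjusted p = 0.266, the highest of 15 alternatives that began at 0.00523), and the call was lost under 7 of the 15. Among them were the fits without guide 2 replicate 2, GFPsg replicate 2 or 3, and guide 1 replicate 1 or 2, and the fit of guide 2 and GFPsg libraries alone. In the knockout contrast Tet3 was called higher under 5 of 14 alternatives. Among them were library size alone (0.19) and the fits without GFPsg replicate 1 (0.16) or guide 2 replicate 3 (0.14).

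Within the Tet family, Tet3 took a larger share and Tet1 and Tet2 smaller ones in all 6 knockout libraries. The CPM of Tet3 itself overlapped between all groups, so its share also reflects the levels of Tet1 and Tet2. On the CPM per kb scale Tet3 made up 61.2 ± 0.151% of the summed Tet level with guide 1, 58.1 ± 1.27% with guide 2 and 53.1 ± 1.02% in GFPsg (SD, n = 3), with no overlap between either guide and GFPsg. Tet1 made up 8.04 ± 0.357%, 9.78 ± 0.392% and 12.4 ± 0.246% in the same groups, and Tet2 30.8 ± 0.483%, 32.1 ± 0.932% and 34.5 ± 0.932%. The sum over the 3 genes was 7.34 ± 0.0662, 8.27 ± 0.670 and 8.13 ± 0.392 CPM per kb. Of the summed Dnmt level Dnmt3b held 2.47 ± 0.249% with guide 1, 2.59 ± 0.0606% with guide 2 and 3.84 ± 0.320% in GFPsg, and Dnmt1 held 89.9 ± 0.0589%, 89.6 ± 0.148% and 87.2 ± 0.354%. These shares are descriptions of the levels above and were not tested.

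Of the maintenance genes Dnmt1 was not called and Uhrf1 was called close to the threshold. Dnmt1 stood at 233, 226 and 226 CPM with guide 1, at 259, 234 and 225 CPM with guide 2, and at 250.5, 238 and 232 CPM in GFPsg. All groups overlapped, and in the knockout contrast Dnmt1 differed by −0.04 on the log2 scale (95% interval −0.13 to 0.05; edgeR adjusted p = 0.476). Uhrf1, whose product reads hemimethylated CpGs, stood at 336, 321 and 312 CPM with guide 1, at 349, 333 and 328 CPM with guide 2, and at 363, 351 and 343 CPM in GFPsg. Guide 1 libraries lay below the controls and guide 2 libraries overlapped them. The log2 change of Uhrf1 was −0.10 ± 0.04 in the knockout contrast (SE; edgeR adjusted p = 0.0330), and 9 of 14 alternatives ended this call, with adjusted p from 0.00167 to 0.839. Those 9 included DESeq2 (adjusted p = 0.0559), scaling by library size alone (−0.01), and leaving out GFPsg replicate 1 (−0.07) or 2 (−0.10), guide 1 replicate 2 (−0.09) or 3 (−0.07), or guide 2 replicate 2 (−0.09) or 3 (−0.09). With guide 1 alone Uhrf1 was at −0.13 (edgeR adjusted p = 0.0179), and the call ended without GFPsg replicate 1 (−0.10), without guide 1 replicate 2 (−0.12) or 3 (−0.09), and with library size alone (−0.04).

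Of the readers, Mbd2 encodes a protein that brings the NuRD repressor complex to methylated DNA. Mbd2 was counted at 83.3, 88.7 and 88.2 CPM with guide 1, at 84.8, 88.4 and 89.4 CPM with guide 2, and at 92.7, 90.9 and 93.2 CPM in GFPsg. Every knockout library was below every control, as was the case for 22.2% of all genes, yet the log2 change was −0.08 ± 0.03 (SE; edgeR adjusted p = 0.0535) and 0.00 with library size alone. It passed the threshold without guide 2 replicate 3 (−0.09, edgeR adjusted p = 0.0416, with 0.0159 to 0.971 over 14 alternatives). Mbd1, whose product has CXXC zinc fingers beside its methyl-CpG domain, averaged 32.3 ± 0.842 CPM with guide 1, 31.95 ± 0.696 CPM with guide 2 and 33.2 ± 0.886 CPM in GFPsg (SD, n = 3). Its groups overlapped, and the log2 change was −0.05 (95% interval −0.13 to 0.04; edgeR adjusted p = 0.358).

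**Figure D3:**
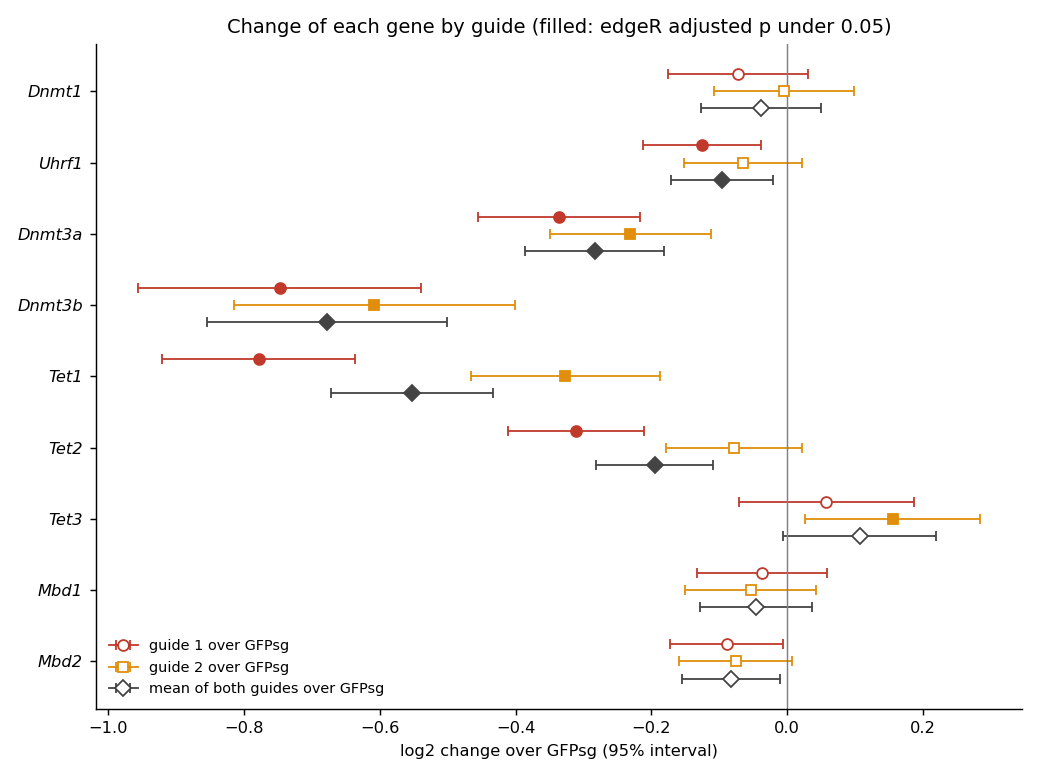
Log2 change of each gene over GFPsg with its 95% interval, for guide 1, guide 2 and the mean of both, filled where the edgeR adjusted p was under 0.05. Dnmt3b and Tet1 lie farthest below 0, at −0.68 and −0.55 in the knockout contrast, and the Tet1 intervals of the guides do not overlap.

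By guide, 5 members were called with guide 1, all lower, where 48.4% of all genes were called, 24.5% lower and 23.8% higher. With guide 2, 3 members were called lower and 1 higher, where 45.1% of all genes were called, 23.0% lower and 22.1% higher. Dnmt3a, Dnmt3b and Tet1 were lower with both guides, as were 19.8% of all genes, while 19.6% were higher with both. Falls of at least 0.5 were called for Dnmt3b and Tet1 with guide 1, against 10.5% of all genes, and for Dnmt3b with guide 2, against 7.98%. Tet1 and Tet2 were called higher with guide 2 than with guide 1, as were 2.66% of all genes. Guide 2 replicate 1 and GFPsg replicate 1 each held their group's highest value for 7 of the 9 genes. Libraries whose omission changed a call of a member are named with that gene above.

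Of 51 further genes of the pathway in 7 lists, 46 were tested, and 11 rose, 19 fell and 16 were not called in the knockout contrast. Over all genes tested 51.0% were called, 24.7% higher and 26.3% lower, and the counts of each list below stand against those shares. Among partners of maintenance methylation 2 of 7 rose and 3 fell. Cdca7l, a paralogue of Cdca7, fell by 0.42 and Pcna, the replication clamp that DNMT1 binds, by 0.34 on the log2 scale. Hells, a remodeller needed for methylation of heterochromatin, rose by 0.12, and its activator Cdca7 rose by 0.15. The S phase list, given beside Dnmt1 and Uhrf1 because both are expressed with replication genes, had 6 of 27 genes higher, 8 lower and 13 not called, with a median of −0.03. Ccne1 (0.38) and Ccne2 (0.37), which encode cyclin E, rose, while Tk1 (−0.36) and Chaf1b (−0.25) fell.

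Among de novo and KRAB-directed silencing genes 1 of 5 tested rose and 1 fell. Setdb1, a histone methyltransferase that silences retroelements, fell by 0.19, a call that scaling by library size alone ended (−0.11, edgeR adjusted p = 0.0896). Nsd1 rose by 0.16, and the call was lost without guide 1 replicate 1, guide 2 replicate 1 or 2, or GFPsg replicate 2 or 3 (edgeR adjusted p from 0.0589 to 0.175). Trim28, the corepressor of KRAB zinc finger proteins (−0.08, edgeR adjusted p = 0.0679) and Setd2, a histone methyltransferase (0.09, edgeR adjusted p = 0.160) were not called. Trim28 passed the threshold without GFPsg replicate 3 (−0.10, edgeR adjusted p = 0.0302, with 0.0247 to 0.857 over 14 alternatives). Dppa3, a germline inhibitor of UHRF1, had at most 1 read per library.

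Other methyl-CpG readers moved in both directions, with 2 of 6 higher and 3 lower. Zbtb38 averaged 129 ± 1.15 CPM with guide 1, 127 ± 11.1 CPM with guide 2 and 75.2 ± 3.70 CPM in GFPsg (SD, n = 3), and differed on the log2 scale by 0.77 ± 0.05 (SE; edgeR adjusted p = 5.36e-10). Zbtb4, a relative of it, rose by 1.00. Zbtb33, which encodes Kaiso, a zinc finger reader of the same kind, fell by 0.39. Mbd4, a glycosylase that removes thymine from G:T mismatches at CpGs, fell by 0.41.

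The base excision list held 4 genes that rose and 4 that fell among 10. Its rises were led by the Gadd45 genes, stress-induced genes whose products have been linked to active demethylation and to growth arrest. Gadd45b stood at 13.4 ± 0.515 CPM with guide 1, 11.7 ± 0.782 CPM with guide 2 and 3.14 ± 0.351 CPM in GFPsg (SD, n = 3), and differed on the log2 scale by 2.00 ± 0.08 (SE; edgeR adjusted p = 1.24e-12). Gadd45g rose by 2.18 and Gadd45a by 1.10, and Neil2, a glycosylase for oxidised bases, fell by 1.06 on the log2 scale. Neil1, a glycosylase gene of the same kind named here after its values were seen, went the other way and rose by 0.63 (edgeR adjusted p = 2.45e-05). Tdg, named here after its values were seen because it is the glycosylase that removes the bases TET enzymes make, was at 138 ± 3.54, 137 ± 5.77 and 148 ± 6.17 CPM in guide 1, guide 2 and GFPsg libraries, and fell by 0.11 (edgeR adjusted p = 0.0239).

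Genes of TET partners and cofactor supply had 1 of 6 tested members higher and 4 lower. Idh1, the cytosolic enzyme that makes 2-oxoglutarate, a cosubstrate of TET enzymes, was counted at 128, 141 and 135 CPM with guide 1, at 140.4, 154 and 157 CPM with guide 2, and at 266, 295 and 302 CPM in GFPsg. No knockout library came near the controls, and the log2 change was −1.02 ± 0.05 (SE; edgeR adjusted p = 5.20e-12). Its mitochondrial counterpart Idh2 fell by 0.47 and Ogt, a TET-binding glycosyltransferase, by 0.32, while Cxxc5, which encodes a CXXC protein, rose by 0.45. Cxxc4 (0 to 5 reads) and Wt1 (0 reads in each GFPsg library, 1 to 8 in knockout libraries) were not tested.

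In methyl donor supply Mat2a, which makes S-adenosylmethionine, fell by 0.47, with 552 ± 4.06 CPM with guide 1, 558 ± 9.61 CPM with guide 2 and 769 ± 28.4 CPM in GFPsg (SD, n = 3; edgeR adjusted p = 1.46e-09). Mtr, methionine synthase, fell by 0.26, and Ahcy, which clears the product of methylation reactions, rose by 0.13. Gnmt, a glycine methyltransferase gene, had at most 8 reads per library. Among 6 CXXC genes, Kdm2b, a demethylase subunit that binds unmethylated CpG islands, fell by 0.43, and Cxxc1 fell by 0.11, a call that 10 of 14 alternatives ended. Those 10 included the fits without GFPsg replicate 1 (−0.08, edgeR adjusted p = 0.156) or 2, any guide 1 library, or guide 2 replicate 3. Kmt2a (0.17, edgeR adjusted p = 0.0541) and Kdm2a (−0.10, edgeR adjusted p = 0.144) were not called. Kmt2a was called higher under 7 of 14 alternatives (edgeR adjusted p from 0.000322 to 0.310 over the 14), among them those without GFPsg replicate 1 (0.25), guide 1 replicate 3 (0.19) or guide 2 replicate 3 (0.22). Kdm2a was called lower under 2 of 14 (edgeR adjusted p from 0.00708 to 0.845), with no filter and without guide 2 replicate 1 (−0.15).

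**Figure D4:**
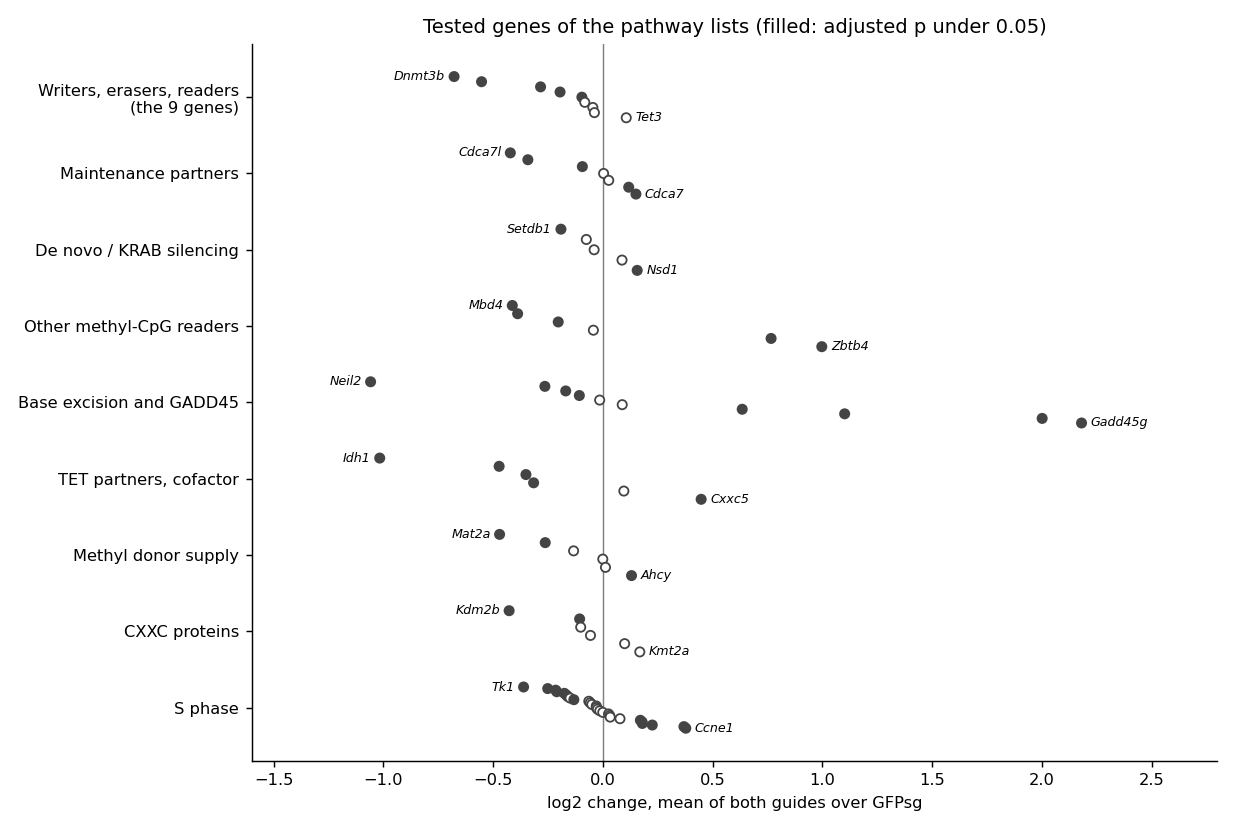
Log2 change in the knockout contrast (mean of both guides over GFPsg) of each tested gene among the 9 genes, the 7 partner lists and the S phase list, filled where the edgeR adjusted p was under 0.05, with the lowest and highest gene of each list named. The 9 genes span −0.68 (Dnmt3b) to 0.11 (Tet3), and the base excision list, the widest of those drawn, spans −1.06 (Neil2) to 2.18 (Gadd45g).

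Genes whose silence is known to depend on DNA methylation were read beside the enzymes. RNA counts do not measure methylation. Of 16 germline genes 13 were too low to test, with at most 10 reads in any library and 4 at 0 in all 9. Of the 3 tested, Ddx4, the germ cell RNA helicase gene, was called lower (−0.91, edgeR adjusted p = 0.0129) at 12 to 22 reads per knockout library and 23 to 41 per GFPsg library, and without GFPsg replicate 1 it was not called (−0.63, edgeR adjusted p = 0.130). Piwil2 (−0.39, edgeR adjusted p = 0.430) and Tdrkh (0.06, edgeR adjusted p = 0.222) were not called. Tdrkh was not silent in these cells, with 2791 to 2980 reads per GFPsg library.

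Imprinted genes, expressed from 1 parental allele under control of methylated regions, were counted as a further list. Of 23 listed, 13 were tested, and 5 rose, 2 fell and 6 were not called, with a median log2 change of 0.06, against 51.0% called and a median of −0.02 over all genes tested. The 10 untested genes had at most 12 reads in any library, and 7 of them, Igf2 and Peg3 among them, were at 0 in all 9. Igf2, Peg3 and Snrpn are named after their values were seen. Snrpn, also at 0, overlaps the Snurf gene, so that its count is uncertain.

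Peg10, a retrotransposon-derived gene expressed from the paternal allele (chromosome 6, 4747306 to 4760517), was counted at 859.5, 860.5 and 875 CPM with guide 1, at 895, 853 and 807 CPM with guide 2, and at 313, 292 and 301 CPM in GFPsg. All knockout libraries lay far above the controls, and the log2 change was 1.51 ± 0.04 (SE; edgeR adjusted p = 3.84e-15). Sgce, Cdkn1c and Plagl1 were added to the named genes after their values were seen, as the other called genes of the list. Sgce, the neighbour of Peg10 (chromosome 6, 4674350 to 4747207), rose by 0.16. H19, a maternally expressed noncoding RNA (chromosome 7, 142575529 to 142578143), had 229 to 249 reads per guide 1 library, 190 to 209 per guide 2 library and 7 to 12 per GFPsg library, and differed on the log2 scale by 4.52 ± 0.19 (SE; edgeR adjusted p = 2.28e-12). Cdkn1c, a maternally expressed cell cycle inhibitor gene on the same chromosome, rose by 2.40, with 44 to 48 reads per guide 1 library, 37 to 57 per guide 2 library and 5 to 10 per GFPsg library.

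Mest, a paternally expressed gene, was lower in all knockout libraries, at 17.7, 17.8 and 19.02 CPM with guide 1, at 21.6, 20.7 and 22.8 CPM with guide 2, and at 30.95, 31.8 and 34.8 CPM in GFPsg. Its log2 change was −0.71 ± 0.05 (SE; edgeR adjusted p = 1.73e-09). Impact, also paternal, fell by 0.47. Plagl1, an imprinted zinc finger gene, was called higher by 0.12, close to the threshold (edgeR adjusted p = 0.0482). Its call was not checked under the alternatives. Plagl1 stood at 532, 469 and 449.4 CPM with guide 2, and at 449.0, 401 and 427 CPM in GFPsg. Its guide 2 libraries lay above GFPsg (0.18, edgeR adjusted p = 0.0123), and its guide 1 libraries overlapped GFPsg (0.06, edgeR adjusted p = 0.440).

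**Figure D5:**
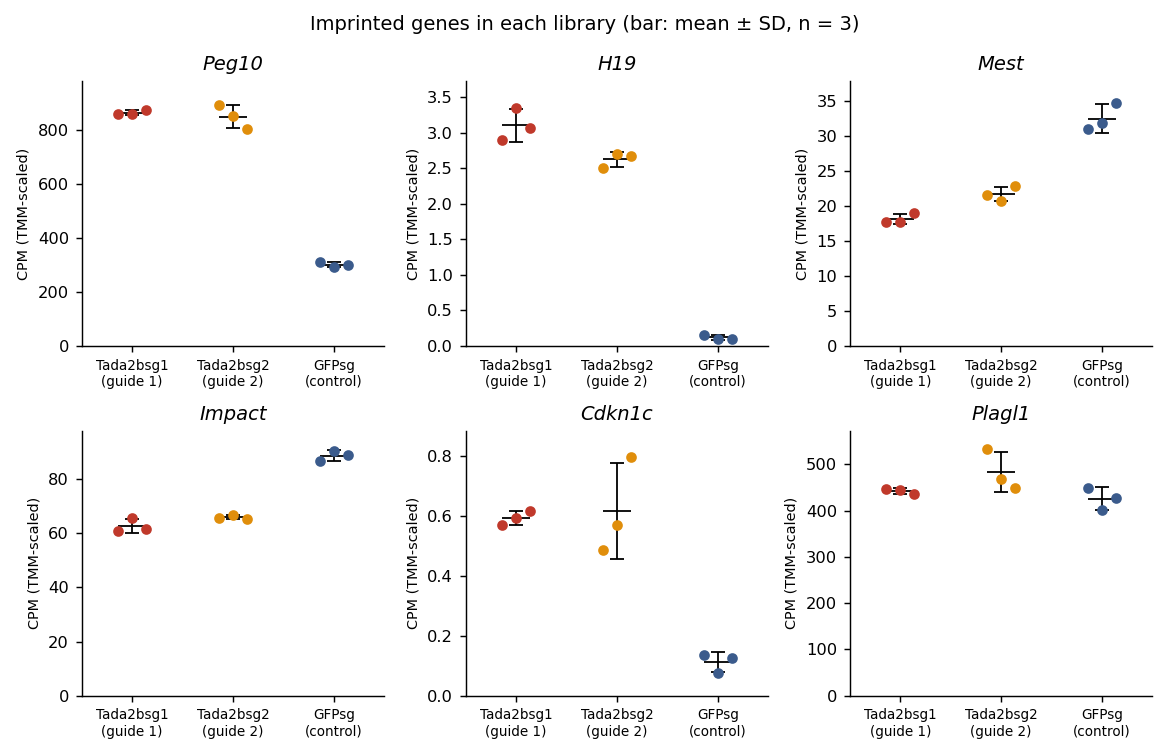
CPM of 6 called imprinted genes in every library by group, with the mean and SD of 3 libraries as a bar. Peg10, H19 and Cdkn1c lie above the controls in all 6 knockout libraries, as do 21.8% of all genes tested. Mest and Impact lie below, as do 22.2%. For Plagl1 guide 2 lies above the controls and guide 1 overlaps them.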

How the data were processed

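Total RNA from 9 B16F10 libraries was prepared with a stranded mRNA kit, per the labels' protocols. The deposited values are raw counts of reads per Ensembl gene, and per the submitters' processing notes bcl2fastq, HISAT2, HTSeq and the mm10 build were used. Their versions, the annotation and the strand setting are not given in the sources used here. GENCODE M21 named 54723 of 54752 gene IDs. No value was normalized before deposit.

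Genes were kept by edgeR's filterByExpr with a count minimum of 10, leaving 17931. A quasi-likelihood model without covariates was fitted to all 9 libraries in edgeR 4.0.16 (limma 3.58.1, R 4.3.3) with TMM scaling, and p-values were adjusted by Benjamini-Hochberg over all genes tested, with a threshold of 0.05. The contrasts were guide 1 over GFPsg, guide 2 over GFPsg, the mean of both over GFPsg (the knockout contrast) and guide 2 over guide 1. The first 3 share the GFPsg libraries. Raw library totals were 70555655 to 76923854 counts, CPM used these totals multiplied by TMM factors, and intervals are at 95%. Each library counted as 1 sample. Replicate libraries differed by more than sampling noise (chi-square per degree of freedom 7.12 to 22.7), which does not show that they were separate cultures. On simulated data for the knockout contrast (17931 genes, 50 changed per fold size), 32 genes were recovered at 1.25-fold and 45 at 2-fold. The simulation changed 200 genes drawn at random, whereas 51.0% of genes were called in the data. Its recovery therefore does not give the power for the 9 genes.

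The alternatives were DESeq2 1.42.0, RLE size factors, library size alone, no filter, the groups compared alone, a replicate block and leaving out each library. The members and gene lists were chosen with earlier results of these data known. Named genes were all 9 members, for each list up to 4 tested genes ranked by p in the knockout contrast, members of lists under 10 genes that were filtered out, and the 2 genes most correlated with each member. Of the methyl donor list, 1 such gene is not reported here. Promoter windows came from RefSeq (GRCm38.p6). Mbd1 and Mbd2 windows were not used here.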

Additional observations from a re-analysis of the deposited data

Results flagged for a closer look

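The change of 2 of the 9 genes differed between the guides by the test of the difference itself. Tet1 was higher with guide 2 than with guide 1 by 0.45 on the log2 scale (36.7% higher; edgeR adjusted p = 0.000677), in each guide 2 library against each guide 1 library. Tet2 was higher by 0.23 (17.5% higher; edgeR adjusted p = 0.00920), also without overlap between the 3 libraries of each guide. Tada2b mRNA was lower with guide 2 by 0.28, and the 10 melanocyte markers were all higher with guide 2. The part of either in these differences was not tested.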

How the results depend on the processing

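Dnmt3b and Tet1 in the knockout contrast and with each guide, Dnmt3a in the knockout contrast and with guide 1, and Tet2 with guide 1 kept their direction and their call under every alternative run, with knockout log2 changes of −0.73 to −0.59 for Dnmt3b, −0.58 to −0.47 for Tet1 and −0.32 to −0.20 for Dnmt3a. Members called in the knockout contrast numbered 5, with 4 to 6 when a library was left out and 7 under the replicate block. The 660 genes called between guides became 1070 with no filter, 1705 under the replicate block and 334 to 822 when a library was left out (347 without guide 1 replicate 2, 334 without guide 1 replicate 3 and 400 without guide 2 replicate 2). The 2 members called between guides became 1 to 2 when a library was left out, with 1 without guide 1 replicate 3. The cause was not tested.

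Values changed sign only in contrasts where the gene was not called, although Tet2 and Uhrf1 were called with guide 1 and in the knockout contrast. With library size alone, Dnmt1 was at 0.00993 with guide 1, 0.0817 with guide 2 and 0.0458 in the knockout contrast (log2), and Mbd1 at 0.0460, 0.0313 and 0.0386. Mbd2 was at 0.00978 with guide 2 and 0.00181 in the knockout contrast, Tet2 at 0.00713 and Uhrf1 at 0.0205 with guide 2, and Trim28 at 0.00868 in the knockout contrast. Dnmt1 with guide 2 was at 0.00921 with DESeq2, 0.00921 with RLE size factors and 0.0102 with the groups compared alone. When a library was left out, Dnmt1 with guide 2 ranged from −0.0649 to 0.0374, Mbd1 between guides from −0.0333 to 0.00497, Mbd2 between guides from −0.0149 to 0.0357, and Piwil2 in the knockout contrast from −0.692 to 0.0555.

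Deviations of same-numbered libraries from their group means correlated at −0.01 to 0.10, and 9 of 9 libraries correlated best with their own number. These 9 matches are not independent, since deviations were taken within groups and matches are shared between libraries. This is a weak hint of something shared that comes from the data and not the design. The main fit had no replicate term. With the replicate block Mbd2 (−0.08, edgeR adjusted p = 0.0159) and Tet3 (0.11, edgeR adjusted p = 0.0241) were called in the knockout contrast. Of the germline and imprinted lists 13 and 10 genes were too low to test, and whether they are silent or below this depth was not tested.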

Other observations

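The genes whose log2 CPM over the 9 libraries was most like that of a member, among 9648 genes, are given as a description, since the libraries share groups and scaling. For Dnmt3b they were Lmf1 and Vps37c (r = 0.98 each), for Dnmt3a Wdr81 and Dagla (0.99 each), for Tet1 Tbc1d2b (0.99) and Pgpep1 (0.98), and for Tet2 Wwox and Strn (0.98 each). Dnmt1 was closest to Sall2 (0.99) and Nup210 (0.97), Uhrf1 to Rtf1 (0.98) and Skiv2l (0.97), and Tet3 to Vps13d (0.98) and Zfp106 (0.97). Mbd2 was closest to Dnajc12 (0.95) and Zfp882 (0.95), and Mbd1 to Poll (0.93) and Hdac10 (0.88). Among the members themselves, Tet1 and Tet2 had r = 0.95 and Tet1 and Dnmt3a r = 0.90.

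Tet2 shares 43 exonic bases with Gm42567 on the opposite strand, which had at most 4 reads in any library.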
